A study of Mus musculus with 44 samples.

Results

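The right hippocampus of running and sedentary young mice was compared in 6 TRAP-seq libraries, each from 1 mouse, out of the 44 samples of the series. The libraries were those of the separate isolation labelled right whole hippocampus, 3 from early-life exercise (ELE) mice numbered TG7.3.1, TG9.1.3 and TG9.2.1 and 3 from sedentary mice numbered TG7.3.3, TG9.1.1 and TG9.2.3. All 6 mice were male Emx1-NuTRAP animals, bred from Emx1-IRES-Cre mothers and NuTRAP fathers, so the controls carried the same alleles as the runners. ELE mice shared a cage and a running wheel with a cage mate from postnatal day 21 to 41, and sedentary mice were pair-housed without a wheel over the same days. Tissue was taken on the day after the last of these.

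In NuTRAP mice, Cre switches on a tagged ribosomal protein, so that translating ribosomes of the Cre-positive cells can be pulled down with their mRNA. Emx1-Cre acts mostly in excitatory neurons of the forebrain, but it is also active in neural progenitors and can mark astrocytes, and RNA of other cells can be carried along in the pull-down. For the separate isolation, RNA came from 1 hemisphere and nuclei from the other, with the sides alternated, so the right and left comparisons were made in different mice. Running is known to act on the hippocampus through neuronal activity, neurotrophins, blood vessels and the daily clock. Neuronal activity rapidly induces immediate early genes. Some of them encode transcription factors that act on later genes, and others, such as Arc, encode proteins that act directly at synapses.

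The 6 libraries held between 45895097 and 65767802 counts each. The 3 genes used to check the label were detected in all 6 libraries. Slc17a7, the vesicular glutamate transporter of excitatory neurons, averaged 3824 ± 188 CPM (counts scaled to a common library total; SD, n = 3) in ELE and 3811 ± 508 CPM in sedentary mice, and Camk2a, a kinase of excitatory synapses, averaged 4518 ± 655 and 4202 ± 939 CPM. Emx1 itself averaged 24.5 ± 1.24 and 22.1 ± 3.15 CPM. Microglial markers were scarce, with 15 genes summing to between 12.4 and 15.4 CPM in every library, and 1 of the 11 tested (Cx3cr1, -1.65) was called lower, a call kept in 1 of the 6 fits with 1 library left out. The 15 astrocyte markers summed to between 9246 and 11173 CPM in ELE and between 9630 and 10650 CPM in sedentary libraries, and the 15 oligodendrocyte markers to between 2770 and 4332 CPM over all 6, and none of these genes was called.

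A gene was called where the unadjusted p of edgeR's quasi-likelihood test was under 0.05 and the change exceeded 1.31-fold. Of 17570 genes tested, 131 (0.746%) were called higher and 216 (1.23%) lower in ELE mice. After Benjamini-Hochberg adjustment over all genes 0 passed 0.05. An unadjusted p under 0.05 was found for 488 genes, fewer than the 878 expected if no gene had changed. The DESeq2 Wald test, run with its default settings on 26922 genes without edgeR's low-count filter, gave 14 at an adjusted p under 0.05. By edgeR's test, only Gm42418, CT010467.1, Nos1, Gm23935, Lars2, Igfbp7 and Arntl had an adjusted p below 0.999763, the value shared by most genes. The calls below are unadjusted unless an adjusted p is printed. The median log2 fold change over all tested genes was -0.0049. The called genes were mostly scarce transcripts. Their median level was 3.62 CPM for genes called higher and 2.27 CPM for genes called lower, against 13.2 CPM over all genes tested.

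**Figure D1:**
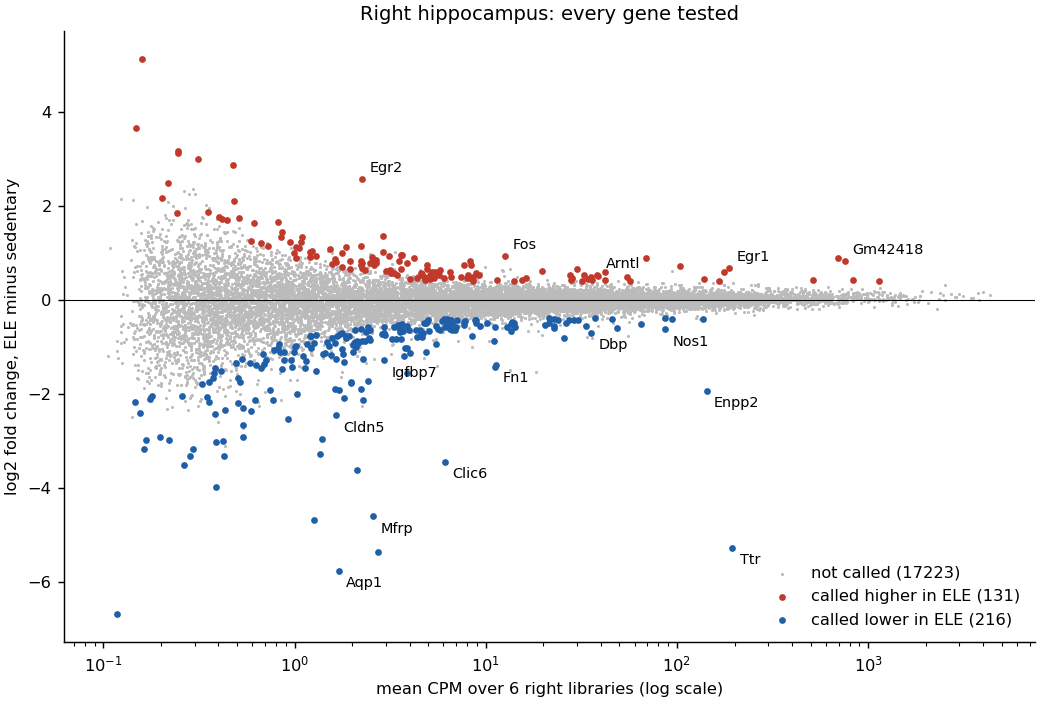
Each point is a gene tested in the right hippocampus, placed by its mean level over the 6 libraries (CPM, log scale) and its log2 fold change, ELE minus sedentary. The 131 genes called higher are red and the 216 called lower are blue, and Ttr, Aqp1, Mfrp and Clic6 are among the genes with the lowest values.

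The neuronal nitric oxide synthase gene Nos1 (ENSMUSG00000029361.18, chr5:117781032-117958840 on the plus strand of GRCm38) had the lowest p among the genes called lower. Nitric oxide made by this enzyme diffuses between cells and raises cGMP in its targets. The 3 ELE mice had 69.0, 68.7 and 67.6 CPM (TG7.3.1, TG9.1.3 and TG9.2.1), and the 3 sedentary mice had 107.0, 99.5 and 110.0 CPM (TG7.3.3, TG9.1.1 and TG9.2.3). The ELE values lay close together and all below the lowest sedentary value. The log2 fold change was -0.63 ± 0.08 (SE, adjusted p = 0.116 by edgeR), and it stayed between -0.67 and -0.60 when any 1 of the 6 libraries was left out. The DESeq2 Wald test gave an adjusted p of 2.4e-06. Of the other genes of nitric oxide and cGMP signalling, none of 19 tested was called. The soluble guanylate cyclase subunits, which receive nitric oxide, had log2 fold changes of -0.01 (Gucy1a1), 0.09 (Gucy1b1) and -0.19 (Gucy1a2), and Nos1ap, an adaptor of the synthase, had 0.10.

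The circadian clock is a feedback loop in which BMAL1, the product of Arntl, and CLOCK activate genes through E-boxes, and the products of those genes repress the activators. Of 19 clock genes, all tested, 2 were called higher and 3 lower, against 0.746% and 1.23% of all genes tested. Only 1 was higher without TG7.3.1, TG9.1.3, TG7.3.3 or TG9.2.3, and between 2 and 5 were lower when 1 library was left out, the 5 without TG9.1.1. Arntl (chr7:113207465-113314126, plus strand) was higher in every ELE mouse, at 44.3, 45.4 and 47.2 CPM against 32.5, 33.9 and 29.1 CPM in sedentary mice (TG7.3, TG9.1 and TG9.2 numbers in this order here and below). The gap between the groups was larger than the range within either group, and the log2 fold change was 0.52 ± 0.10. The adjusted p was 0.942 by edgeR and 0.0174 by the DESeq2 Wald test. Nfil3, a repressor that binds the same D-box sites as DBP, had 17.7, 20.0 and 15.4 CPM in ELE and 11.5, 16.3 and 11.99 CPM in sedentary mice, which overlap through TG9.2.1 and TG9.1.1. It kept its call in 2 of the 6 fits with 1 library left out, with log2 fold changes between 0.32 and 0.59.

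The 3 clock genes called lower are outputs and repressors of the loop. Dbp, an activator at D-boxes, had 23.0, 31.8 and 26.6 CPM in ELE and 49.8, 31.1 and 51.4 CPM in sedentary mice. Only sedentary mouse TG9.1.1 lay in the range of the runners, and the log2 fold change was -0.70 ± 0.19 (adjusted p = 1 by edgeR). Nr1d2, which encodes the repressor REV-ERBβ, had 45.2, 50.04 and 65.3 CPM in ELE and 74.3, 63.3 and 91.7 CPM in sedentary mice, again with an overlap through TG9.1.1 and no call without TG9.2.3 (-0.51 ± 0.16). Ciart, which encodes the repressor CHRONO, had 1.81, 3.49 and 4.97 CPM in ELE and 6.81, 5.57 and 5.25 CPM in sedentary mice, without overlap (-0.78 ± 0.32). Its call was lost without TG7.3.1, TG9.1.3 or TG7.3.3. Per3 had a log2 fold change of -0.75 but a p of 0.057. Clock (-0.03), Per1 (-0.08), Per2 (-0.06) and Nr1d1 (-0.04) had values near 0 and were not called.

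Of the clock genes, the promoter of Ciart is printed because it held the most copies of the E-box. Over the 250 bases before the RefSeq start (GRCm38.p6, chr3:95882229-95882478, minus strand), 3 copies of CACGTG begin 116, 58 and 44 bases before the start, shown in capitals.
Ciart: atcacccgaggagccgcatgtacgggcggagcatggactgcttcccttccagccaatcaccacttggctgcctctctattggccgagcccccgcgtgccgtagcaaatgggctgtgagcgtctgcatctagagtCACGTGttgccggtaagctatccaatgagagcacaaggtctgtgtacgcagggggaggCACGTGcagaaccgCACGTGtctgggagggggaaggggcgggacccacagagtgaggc
On either strand, CACGTG was found in 5 of the 17 clock genes that had a promoter in the RefSeq table (29.4%), in 6.05% of all 27025 promoters and in 8.09% of those of tested genes. It was found in 12.2% of the promoters of all genes called higher and in 6.3% of those of genes called lower. The other 4 were Bhlhe41, Cry1, Per1 and Tef, none of which was called.

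The same clock genes could be measured in the left hippocampi, which came from 6 other mice. There, 1.1% of 17750 genes tested were called higher and 0.963% lower. Arntl, Nfil3, Dbp and Ciart were called on the left too, in the direction they had on the right, with log2 fold changes of 0.48, 0.66, -1.19 and -0.76, and Nr1d2 had -0.53 with a p of 0.0913. Per3, which was not called on the right, was called lower there (-0.84). Between the sides, the effect of ELE on Arntl differed by 0.04 ± 0.12 on the log2 scale (right minus left), and that on Dbp by 0.49 ± 0.38. Of the 19 clock genes, 1 had an unadjusted p under 0.05 for this difference, Bhlhe40, a repressor that was not called on either side (-0.02 on the right, 0.24 on the left), with a difference of -0.26 ± 0.10.

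Immediate early transcription factors were the list of neuronal genes with the most calls on the right. Of 20 tested, 6 were called higher and 0 lower, against 0.746% and 1.23% of all genes tested. The median log2 fold change of the list was 0.35 against -0.0049 over all genes. Egr1, whose zinc-finger protein drives activity-dependent transcription, had 219, 309.5 and 167 CPM in ELE and 171, 113 and 148 CPM in sedentary mice. ELE mouse TG9.1.3 was far above the rest, and TG9.2.1 lay within the sedentary range (0.69 ± 0.21). Egr2 had 2.35, 7.91 and 1.30 CPM in ELE and 1.19, 0.223 and 0.541 CPM in sedentary mice, without overlap, although TG9.2.1 lay just above sedentary mouse TG7.3.3 (2.58 ± 0.72). Klf10, a repressor induced by growth factors, did not overlap between the groups, with 35.5, 35.7 and 39.0 CPM in ELE and 18.3, 30.2 and 21.2 CPM in sedentary mice (0.66 ± 0.17). Nr4a1, an orphan nuclear receptor, had 55.4, 83.8 and 53.6 CPM in ELE and 52.1, 36.6 and 47.8 CPM in sedentary mice (0.50 ± 0.18). Its call was lost without TG9.1.3, where the log2 fold change was 0.26, and without TG9.1.1.

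Egr4 and Fos completed the 6. Egr4 had a log2 fold change of 0.59 and Fos of 0.94 with an SE of 0.42, and in both the ELE and sedentary values overlapped. Each kept its call in 2 of the 6 fits with 1 library left out. Mouse TG9.1.3 had the highest level of 5 of the 6 genes, Klf10 being the exception. Without this library 3 of 20 members were called higher and the list's median was 0.14, and without any other single library between 4 and 7 were called. The members that were not called included Npas4 (0.31 ± 0.68), the factor most restricted to calcium entry, Fosb (0.63 ± 0.41) and Junb (0.39).

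The list of activity-induced synaptic effectors and kinase feedback genes, some of which are themselves immediate early genes, had 1 of 23 tested members called higher and 0 lower, with a median of 0.24. Without TG9.1.3 or TG9.2.3 0 were called, without TG7.3.1 2, without TG9.2.1 6 and without TG9.1.1 7, and the median ran from 0.07 to 0.34. The called gene was Ptgs2, which encodes cyclooxygenase-2, at 34.1, 35.2 and 29.4 CPM in ELE and 24.7, 29.0 and 17.5 CPM in sedentary mice (0.47 ± 0.17). The lowest ELE value lay just above the highest sedentary value, and the call was lost without TG7.3.1, TG9.1.3 or TG9.2.3. Homer1, a postsynaptic scaffold, had an unadjusted p of 0.0281 but its log2 fold change of 0.28 was under the threshold. Arc, whose protein regulates AMPA receptor uptake, had 79.1, 213 and 49.9 CPM in ELE and 97.1, 47.5 and 79.2 CPM in sedentary mice, so that TG9.1.3 alone stood above the others (0.61 ± 0.45). Bdnf, the neurotrophin most linked to running, had a log2 fold change of 0.06 ± 0.17, and its receptor gene Ntrk2 0.02 ± 0.10. None of the 11 neurotrophin and receptor genes tested was called.

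**Figure D2:**
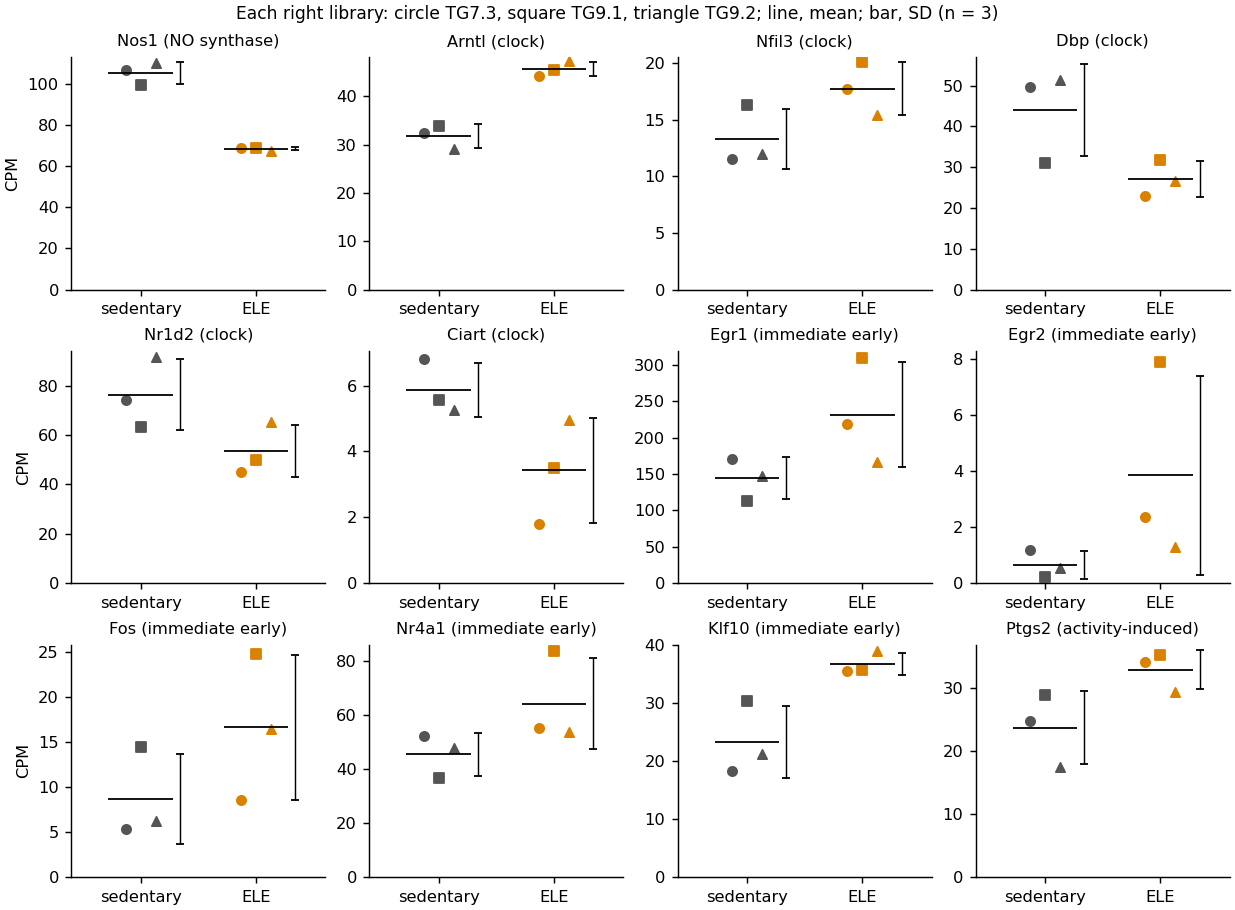
Levels (CPM, axes from 0) of 12 genes in each of the 6 right libraries, with the mean as a line and the SD as a bar (n = 3 per group). Nos1, Arntl, Klf10, Egr2, Nr4a1, Ciart and Ptgs2 separate the groups, while Egr1, Fos, Dbp, Nr1d2 and Nfil3 have mice of 1 group within the range of the other.

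The promoters of 3 called immediate early genes are printed because the half-site of the CREB-binding element, TGACG, recurs in them. CREB is the transcription factor that cAMP and calcium signals activate in firing neurons. Capitals mark TGACG on either strand in the 250 bases before the RefSeq start (GRCm38.p6), at chr15:101266596-101266845 on the plus strand for Nr4a1, chr6:85513590-85513839 on the minus strand for Egr4 and chr12:85473640-85473889 on the plus strand for Fos.
Nr4a1: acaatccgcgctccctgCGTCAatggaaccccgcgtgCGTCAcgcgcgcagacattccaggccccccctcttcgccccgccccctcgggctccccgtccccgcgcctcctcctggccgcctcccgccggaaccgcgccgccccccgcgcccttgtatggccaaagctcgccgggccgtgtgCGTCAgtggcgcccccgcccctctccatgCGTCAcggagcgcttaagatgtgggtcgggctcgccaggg
Egr4: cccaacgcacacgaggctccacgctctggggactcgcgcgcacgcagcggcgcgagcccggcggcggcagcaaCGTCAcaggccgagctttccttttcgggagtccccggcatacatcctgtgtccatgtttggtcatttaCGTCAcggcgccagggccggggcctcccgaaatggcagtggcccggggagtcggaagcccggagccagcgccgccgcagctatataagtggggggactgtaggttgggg
Fos: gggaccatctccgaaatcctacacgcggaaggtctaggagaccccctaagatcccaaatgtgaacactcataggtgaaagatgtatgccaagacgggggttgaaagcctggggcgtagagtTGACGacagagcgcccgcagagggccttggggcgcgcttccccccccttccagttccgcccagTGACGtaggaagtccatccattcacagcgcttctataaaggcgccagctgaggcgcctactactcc
Nr4a1 holds 4 copies and Egr4 and Fos hold 2 each. Egr2, which was also called, holds 0, and Egr1 and Klf10 had no promoter in the RefSeq table. Among members that were not called, Nr4a2 and Nr4a3 hold 4 copies each and Npas4 holds 2, while Jun, Jund and Fosl2 hold 0. The half-site was present in 12 of the 16 list members found in the RefSeq table (75.0%), called or not, in 17.9% of all promoters and in 25.7% of the promoters of tested genes. It was present in 17 of the 74 promoters of all genes called higher (23.0%) and in 22 of the 127 of genes called lower (17.3%). The full palindrome TGACGTCA, which contains the half-site, was in none of the 16 and in 1.62% of all promoters.

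Among genes called higher, the lowest p were sought only in protein-coding genes whose groups did not overlap. The lack of overlap was therefore set by this choice. The other genes picked in this way had various roles. Chgb, a granin of dense-core vesicles, was the most abundant, at 967, 933 and 949 CPM in ELE and 782, 679 and 665 CPM in sedentary mice (0.42 ± 0.09). Inf2, a formin that remodels actin, averaged 212 ± 18.2 CPM in ELE and 141 ± 23.2 CPM in sedentary mice (0.59 ± 0.13). The adhesion molecule gene Clmp (0.50), Syt12, a synaptotagmin of synaptic vesicles (0.54), and Klk8, an extracellular protease that acts at synapses (0.53), were raised by similar amounts. So were Fhl2, a LIM-domain cofactor (0.44), and Il1rap, the accessory chain of the interleukin-1 receptor (0.43), whose calls were lost without TG9.2.1 for Fhl2 and without TG7.3.1 or TG9.2.3 for Il1rap. Card6 (0.83), the glycosyltransferase gene B4gat1 (0.94) and Cdkn1a, which encodes the cell-cycle inhibitor p21 (0.75), were scarcer, with ELE means between 4.08 and 9.61 CPM. Cdkn1a was also called higher on the left, with a log2 fold change of 1.15.

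For genes called lower, the lowest p were again sought only among protein-coding genes whose groups did not overlap. Stk32b, a serine-threonine kinase, was among them and averaged 1.13 ± 0.47 CPM in ELE and 3.74 ± 0.783 CPM in sedentary mice (-1.73 ± 0.34). Plch1, a phospholipase C that releases calcium from stores, averaged 2.50 ± 0.608 and 5.05 ± 0.298 CPM (-1.01 ± 0.23). Lrrk2, a kinase of membrane traffic, had 13.2, 9.93 and 11.3 CPM in ELE and 16.0, 16.9 and 18.2 CPM in sedentary mice (-0.57 ± 0.15). Tshz1, a zinc-finger transcription factor, averaged 25.9 ± 1.62 and 34.8 ± 2.35 CPM (-0.43 ± 0.11, not called without TG9.2.3), and Mttp, which loads lipids onto lipoproteins, 11.7 ± 1.32 and 16.5 ± 1.85 CPM (-0.49). Rps27rt, a retrotransposed copy of a ribosomal protein gene, had a log2 fold change of -1.14, but reads of such copies can be shared with the parent gene, so its value is uncertain. Cdr2 (-1.10 ± 0.29) and Cdkn1c, an imprinted cell-cycle inhibitor (-2.003 ± 0.43), were highest in the libraries with most choroid plexus RNA. Cdr2 had 9.74 CPM in sedentary mouse TG9.2.3 against 4.96 and 5.19 CPM in TG7.3.3 and TG9.1.1 and between 2.48 and 3.45 CPM in ELE mice, and on the left between 9.93 and 13.4 CPM in TG7.3.2, TG7.3.4 and TG9.1.2 against at most 5.23 CPM in the other 3. Cdkn1c had 2.16 CPM in TG9.2.3 against 1.45 and 1.36 CPM in the other sedentary mice and at most 0.562 CPM in ELE mice, and on the left between 2.0 and 3.88 CPM in the same 3 libraries against at most 0.654 CPM. Both kept their call without TG9.2.3. The part of choroid plexus RNA in these values was not tested.

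The marker genes of the hippocampal subfields were counted separately. Of 16 dentate granule cell genes 0 were called, with a median log2 fold change of 0.0003, and of 14 CA1 genes only Ccn3 was called, lower (-0.39 ± 0.15), and it kept its call in 3 of the 6 fits with 1 library left out. The CA2 and CA3 list had 4 of 19 members called, against 0.746% of all genes tested called higher and 1.23% lower. Chgb, Bok (a BCL2-family protein, 0.40) and Prkcd (protein kinase C delta, 0.62) were higher, Amigo2 (an adhesion protein of CA2 and CA3, -0.48) was lower, and the median was -0.02. Without TG7.3.1 or without TG9.2.3 only 1 was higher, and without TG9.1.3 or TG9.2.3 none was lower, so that each of the 4 lost its call in at least 1 of these fits. Of 20 excitatory forebrain identity genes 0 were called and 16 had positive values, with a median of 0.10. The calcium sensor gene Hpca had the lowest p of these, 0.00726, with a log2 fold change of 0.33. Interneuron genes had Nos1 lower and Slc32a1, the vesicular GABA transporter, higher out of 27 tested. Slc32a1 was at 5.54, 1.40 and 2.31 CPM in ELE and 1.93, 0.871 and 1.35 CPM in sedentary mice, and its ELE mean rested on TG7.3.1. Without that library its log2 fold change was 0.42 and it was not called, nor was it called without TG9.1.1 or without TG9.2.3. Avp, which encodes vasopressin, was called higher at 0.556 ± 0.246 CPM in ELE and 0.15 ± 0.0596 CPM in sedentary mice, but not without TG9.1.3, TG7.3.3 or TG9.1.1. It stands on a list of thalamic, septal and hypothalamic markers, of which 2 of 12 tested (Avp and Prkcd) were called, with a median of -0.02 and sums between 86.2 and 120 CPM over the 6 libraries.

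Synaptic and excitability genes gave few calls, where 0.746% of all genes tested were called higher and 1.23% lower. Of 23 AMPA and kainate receptor genes, 7 metabotropic glutamate receptors, 15 GABA receptor subunits, 42 potassium, 16 sodium and HCN, and 12 calcium channel genes, 0 were called, and their medians lay between -0.02 and 0.09. The lowest p among the AMPA and kainate list belonged to Gria3 (0.22 ± 0.09), whose change was under the threshold. Among 27 NMDA receptor and postsynaptic density genes only Grin3a was called, lower at 32.2 ± 2.3 CPM in ELE against 42.2 ± 6.44 CPM in sedentary mice (-0.39 ± 0.13). Its product is a subunit that reduces calcium entry through NMDA receptors. Among 40 vesicle and release genes only Unc13c, a priming factor, was called, lower (-0.83 ± 0.33). Of the adhesion and guidance genes, 3 of 86 cadherins and protocadherins (Pcdh11x -0.91, Pcdha6 -0.85, Pcdh18 -2.42), 1 of 47 semaphorin, plexin, netrin and slit genes (Plxnb3, -0.61) and 1 of 20 ephrin and Eph genes (Efna1, -0.84) were called, each lower. Pcdh18 was below 0.9 CPM in every right library, and on the left it was called in the other direction, higher (1.73). Of the genes named in this paragraph as called, Pcdh11x alone kept its call whichever library was left out.

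Several lists of metabolic, translational and chromatin genes had no called member, where 0.746% of all genes tested were called higher and 1.23% lower. None of 83 nuclear-encoded respiratory chain genes, 82 mitochondrial ribosomal protein genes, 86 cytosolic ribosomal protein genes, 34 glycolysis and citrate cycle genes, 59 splicing genes, 25 Polycomb genes, 28 histone acetylation genes or 42 histone methylation genes was called, and their medians lay between -0.05 and 0.07. Values were positive in 28 of the 34 glycolysis genes (median 0.04) and 47 of the 59 splicing genes (median 0.07), and negative in 61 of the 86 cytosolic ribosomal protein genes (median -0.03). Among stress and hormone genes, 1 of 19 glucocorticoid targets (Cdkn1a) was higher and 1 of 20 interferon-induced genes (Ifitm3, -0.69 ± 0.30) lower, the latter in 2 of the 6 fits with 1 library left out, and none of 26 heat shock or 25 cholesterol genes was called. Insulin and IGF genes had 1 of 19 called, Igf2, which is also on the meningeal list. It was at most 0.281 CPM in ELE mice and had 0.768, 0.446 and 1.64 CPM in sedentary mice, the highest in TG9.2.3, without which it was not called. On the left it had between 1.74 and 3.20 CPM in TG7.3.2, TG7.3.4 and TG9.1.2, the libraries high in choroid plexus RNA, and at most 0.424 CPM in the other 3.

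**Figure D3:**
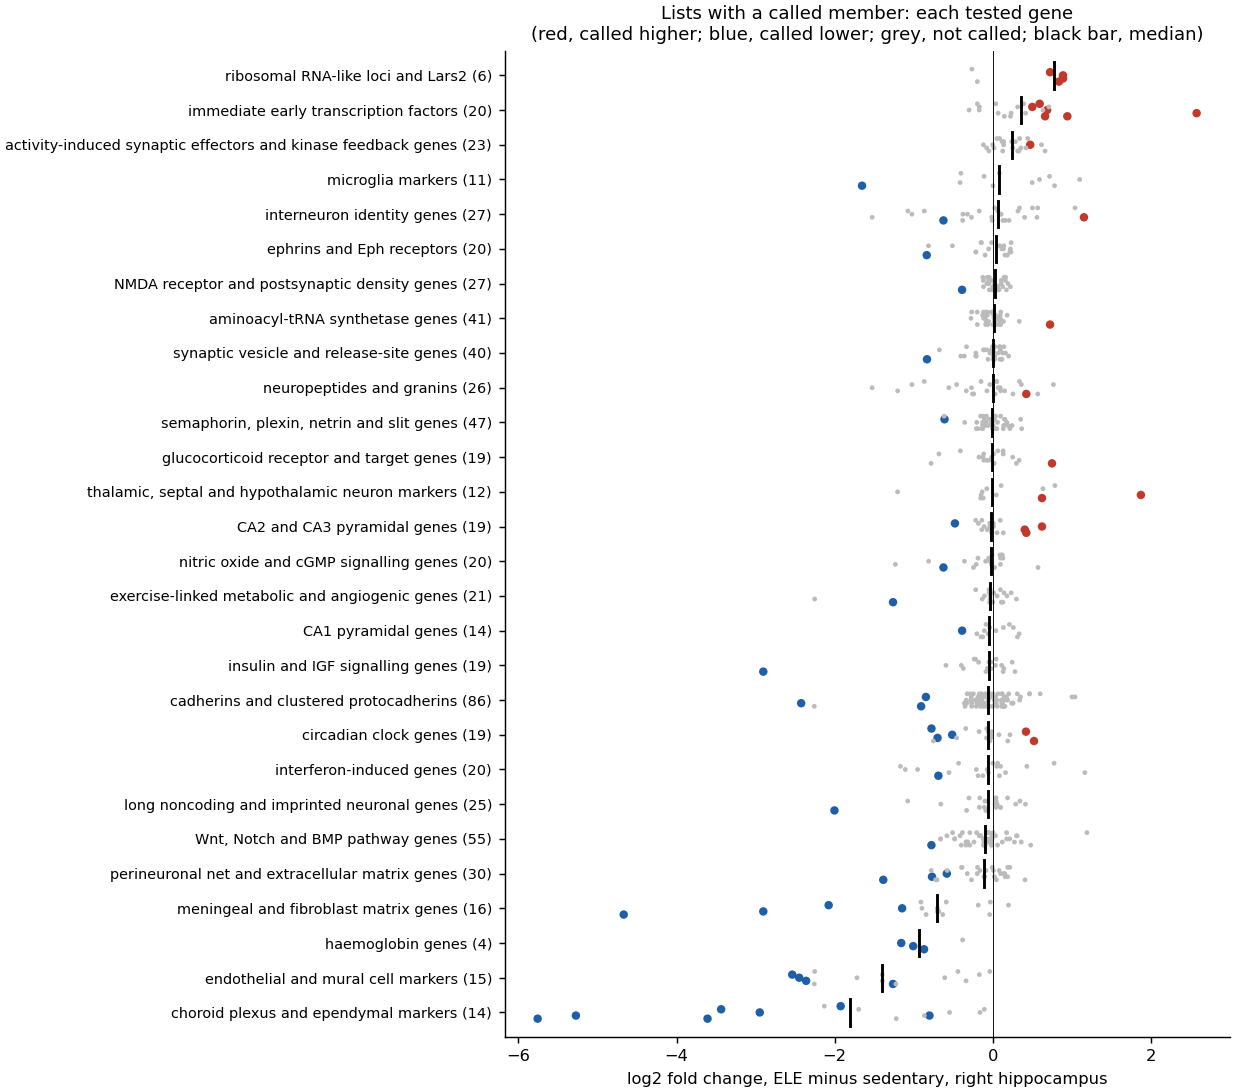
Log2 fold changes (ELE minus sedentary) of every tested gene in the 28 lists with a called member, ordered by the list's median (black bar), with the number of tested genes in brackets. The medians of the ribosomal RNA-like loci (0.78), the immediate early genes (0.35) and the activity-induced genes (0.24) are the highest, those of the choroid plexus, endothelial, haemoglobin and meningeal lists are the lowest, and the others lie between -0.11 and 0.08.

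The lists with the most genes called lower held markers of tissues beside the neurons. The choroid plexus, the tissue that secretes cerebrospinal fluid, and the ependyma were represented by 15 markers. Of these, 14 were tested and 7 were called lower, against 1.23% of all genes tested, with a median log2 fold change of -1.81. Ttr, the transthyretin gene, had 19.6, 2.28 and 7.94 CPM in ELE mice and 13.3, 55.1 and 1071 CPM in sedentary mice TG7.3.3, TG9.1.1 and TG9.2.3. The sedentary mouse TG9.2.3 had by far the highest value, and ELE mouse TG7.3.1 lay above sedentary mouse TG7.3.3. The same mouse had 551 CPM of Enpp2, a lysophospholipase, against between 44.8 and 70.8 CPM in the other 5, 8.78 CPM of the water channel gene Aqp1 against at most 0.831 CPM, 5.66 CPM of the folate receptor gene Folr1 against at most 0.988 CPM, and 13.7 CPM of Mfrp against at most 0.571 CPM. Summed over the list, TG9.2.3 had 1801 CPM and the other 5 libraries between 84.7 and 188 CPM. Without TG9.2.3, 2 of the 14 were called lower and the median was -0.18. These were Ttr and Aqp1, which kept their call whichever library was left out, with log2 fold changes from -6.23 to -1.80 and from -6.47 to -3.31. Aqp1 had at most 6 counts in any ELE library and passed the low-count filter only through the sedentary libraries, so the size of its change is uncertain. Without ELE mouse TG9.1.3 4 were called, and without the sedentary mice TG9.1.1 and TG7.3.3 in turn 11 and 10. In a bulk pull-down, fewer cells of a type and less RNA per cell cannot be told apart.

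Endothelial and mural cell markers, the lining and the muscle of blood vessels, were another such list. Of 15 tested, 4 (Kdr, Tek, Cldn5 and Myh11) were called lower and 0 higher, against 1.23% and 0.746% of all genes tested. The list's median was -1.40. Here a different sedentary mouse stood out. Cldn5, a tight junction gene, had 0.321, 0.446 and 0.748 CPM in ELE mice, 0.365 and 0.613 CPM in sedentary mice TG9.1.1 and TG9.2.3, and 7.38 CPM in TG7.3.3. Leaving out the abundant Bsg, which neurons also express and which made up 91.1% of the sum, the list summed to between 24.4 and 34.3 CPM in ELE, 27.7 and 31.5 CPM in the sedentary TG9.1.1 and TG9.2.3, and 85.6 CPM in TG7.3.3. Without TG7.3.3, 0 of the 15 were called and the median was -0.03, without TG9.1.1 11 were called, and without ELE mouse TG7.3.1 2. The part of vascular and choroid plexus RNA in other genes was not tested. Haemoglobin genes had 3 of 4 called lower, with summed levels between 3.98 and 4.91 CPM in ELE and 4.92, 8.91 and 11.5 CPM in TG9.1.1, TG9.2.3 and TG7.3.3, and near-identical copies such as Hba-a1 and Hba-a2 cannot be separated with certainty. Without TG9.2.3 none of the 4 was called, and without TG7.3.3 or TG9.2.1 1 was. Meningeal and fibroblast matrix genes had 4 of 16 called lower, of which Col8a1, Slc13a4 and Igf2 were highest in TG9.2.3, and without that library 1 of 16.

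**Figure D4:**
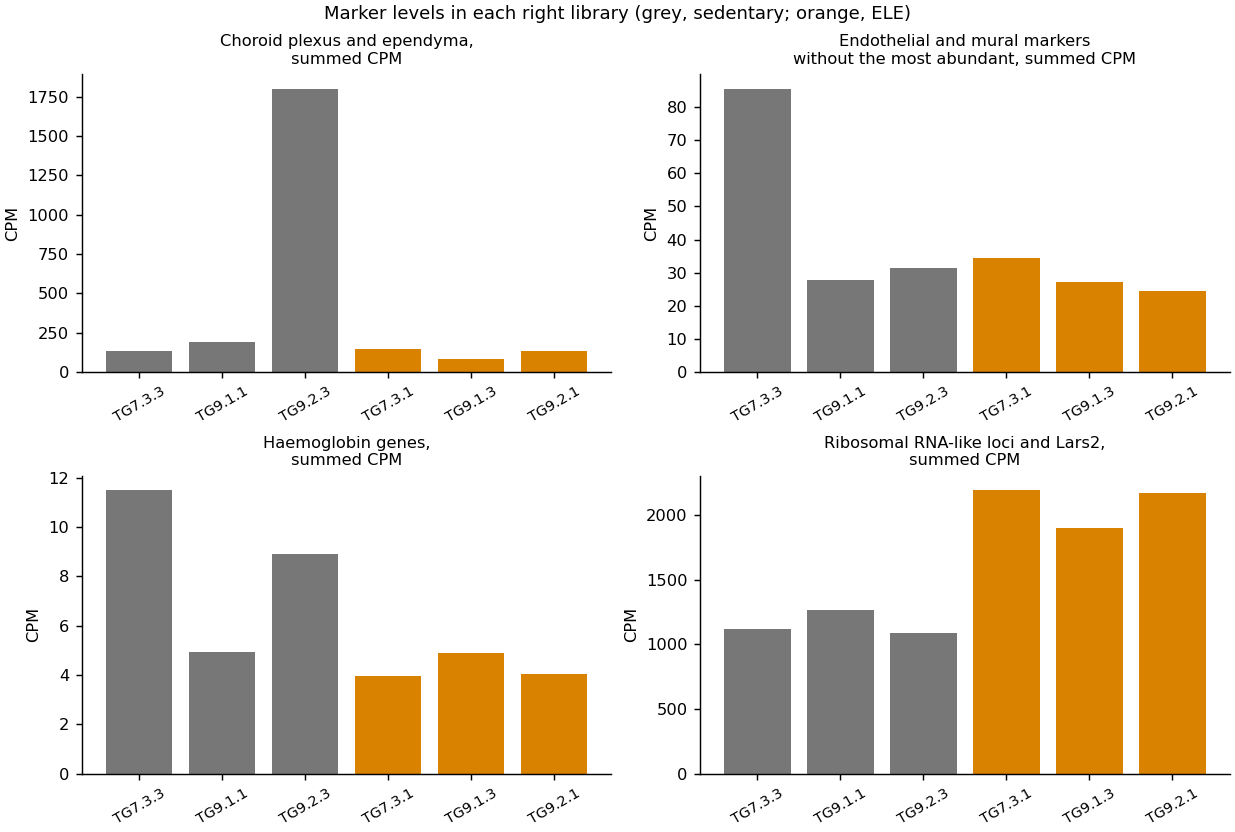
Summed CPM (axes from 0) of 4 lists in each right library, sedentary in grey and ELE in orange, with Bsg left out of the endothelial list. A single sedentary library stands above the other 5 in the choroid plexus panel (TG9.2.3) and in the endothelial panel (TG7.3.3), whereas all 3 ELE libraries exceed all 3 sedentary libraries for the ribosomal RNA-like loci.

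The matrix, growth-factor and junction genes Igfbp7, Fn1 and Cgnl1 were called lower whichever library was left out, which Acan and Col4a1 were not. Igfbp7, a secreted binder of insulin-like growth factors, had 1.55, 1.88 and 1.73 CPM in ELE and 4.35, 4.38 and 3.81 CPM in sedentary mice, 3 values in each group that lay close together. Its log2 fold change was -1.28 ± 0.23, with an adjusted p of 0.59 by edgeR and 0.0174 by the DESeq2 Wald test. Without any 1 library the change stayed between -1.35 and -1.21. Fn1, which encodes fibronectin of the extracellular matrix, had 6.18, 6.19 and 6.37 CPM in ELE and 20.1, 20.7 and 8.28 CPM in sedentary mice, so that TG9.2.3 was the lowest of the sedentary group (-1.39 ± 0.29). Without TG9.2.3 its log2 fold change was -1.71 with an adjusted p of 0.0241 by edgeR. The perineuronal net and matrix list had 3 of 30 members called, all lower, against 1.23% of all genes tested. They were Fn1, the proteoglycan gene Acan (-0.77 ± 0.31) and the basement membrane gene Col4a1 (-0.58 ± 0.25), and the list's median was -0.11. Cgnl1, a junction protein gene, had 0.743, 1.06 and 0.748 CPM in ELE and 4.83, 1.09 and 5.23 CPM in sedentary mice, where TG9.1.1 lay next to the runners. On the left it had between 5.95 and 6.55 CPM in TG7.3.2, TG7.3.4 and TG9.1.2 and at most 1.22 CPM in the other 3. 

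Over all 216 genes called lower, the highest sedentary value belonged to TG9.2.3 in 89 (41.2%), to TG7.3.3 in 80 (37.0%) and to TG9.1.1 in 47 (21.8%). Over all genes tested the corresponding shares were 31.8%, 32.7% and 35.5%. Leaving out TG9.2.3 gave 164 genes called lower, of which 91 were among the 216, and leaving out TG7.3.3 gave 216, of which 105 were shared. Leaving out TG9.1.1 moved the counts most, to 267 higher and 376 lower. Among the 131 genes called higher, the highest value belonged to ELE mouse TG9.1.3 in 61 (46.6%), against 35.2% over all genes. Of the 69 called genes that the naming rule picked, 30 kept their call whichever library was left out, a count that the rule's choice of small p itself raises. Among them were Ttr, Nos1, Arntl, Dbp, Egr1, Egr2, Klf10, Cdkn1a, Inf2, Klk8, Igfbp7, Fn1, Plch1, Stk32b and Lrrk2. Aqp1, with at most 6 counts in any ELE library, was also among them. The CPM of the ELE and sedentary libraries did not overlap in 262 of the 347 called genes, against 7.68% of all genes tested, a share that the call itself raises.

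The loci with the lowest p of all were not neuronal genes. Gm42418 (chr17:39846958-39848788, plus strand) and CT010467.1 (chr17:39846353-39848827, minus strand), which overlap and resemble ribosomal RNA, rose in the ELE mice with log2 fold changes of 0.84 ± 0.10 and 0.89 ± 0.11 (adjusted p = 0.0741 for both by edgeR), and so did Gm23935 (0.89 ± 0.15) and Lars2 (0.72 ± 0.12), the gene of the mitochondrial leucyl-tRNA synthetase. The other 2 of the 6 tested members of this list, Gm26917 (-0.26) and Gm15564 (-0.20), were not called. Of the 40 other aminoacyl-tRNA synthetase genes tested none was called. Reads of these loci can be shared with ribosomal RNA repeats and with each other, so the levels are uncertain. Summed over the list, the ELE libraries had between 1899 and 2191 CPM and the sedentary libraries between 1088 and 1265 CPM. On the left the same sum ranged from 1011 to 2118 CPM in ELE and from 1146 to 2517 CPM in sedentary mice, and Lars2 was called lower (-0.67). Whether residual ribosomal RNA moved with other genes was not tested.

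The difference between the effects on the right and on the left was tested in 1 model over the 12 separately isolated libraries. Of 18810 genes, 490 (2.6%) had an unadjusted p under 0.05, a smaller share than the 0.05 expected if no gene differed. By edgeR 0 had an adjusted p under 0.05, the lowest being 0.999956. Side cannot be told apart from mouse in this test, since no mouse gave both. Of the 131 genes called higher on the right, 127 were tested on the left, and 83 of these (65.4%) had a positive value there, against 50.9% of all genes tested on both sides. Of the 216 called lower, 140 of the 210 tested (66.7%) were negative on the left, against 49.1%. The medians on the left were 0.10 and -0.16, where those on the right were 0.75 and -0.91, a gap that picking the genes on the right itself widens. Nos1 had a log2 fold change of 0.00 on the left, and the right-minus-left difference was -0.63 ± 0.14 (unadjusted p = 0.00067). Igfbp7 likewise had 0.05 on the left and a difference of -1.33 ± 0.30. Klf10 had 0.77 on the left, with a p of 0.0814 there. On the choroid plexus list, 0 of the members tested on the left were called and the summed level was high, between 1606 and 1956 CPM, in ELE mouse TG7.3.2 and in sedentary mice TG7.3.4 and TG9.1.2, and at most 178 CPM in the other 3.

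**Figure D5:**
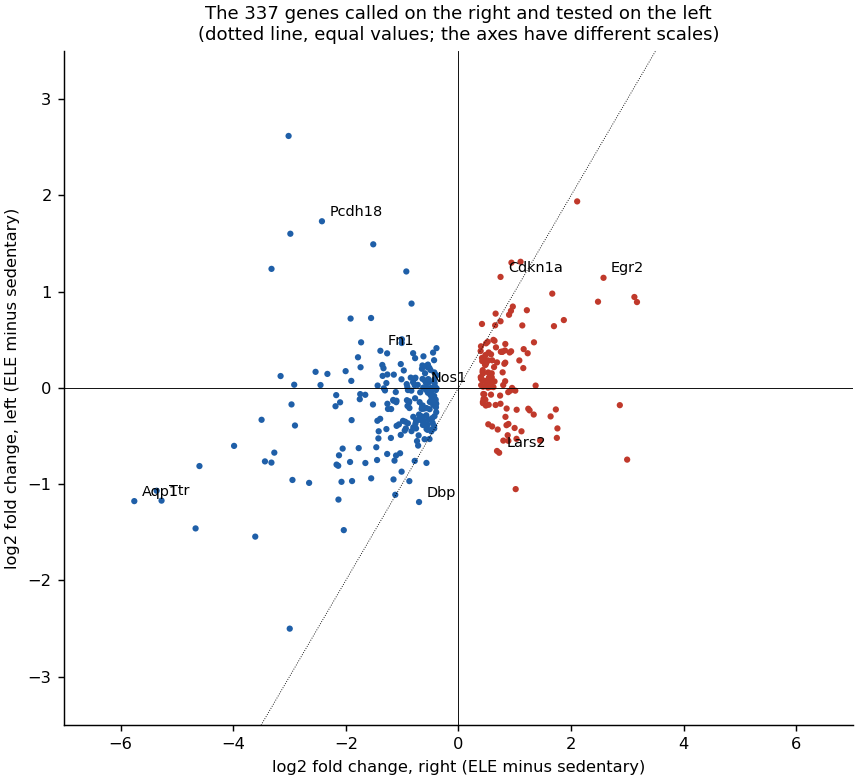
Log2 fold changes (ELE minus sedentary) on the right (x axis) and the left (y axis) of the 337 genes called on the right and tested on the left, red where called higher and blue where called lower on the right. Most points lie closer to 0 on the left, which picking the genes by their change on the right itself favours. The left medians are 0.10 and -0.16 for the red and the blue genes, and Dbp and Cdkn1a lie beyond the dotted line of equal values.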

How the data were processed

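The authors deposited raw read counts per gene for Emx1-NuTRAP mice. Per the labels and the submitters' processing notes, reads were aligned to GRCm38 with STAR 2.7.3a, duplicates were removed with Picard 1.87, and read pairs were counted over exons with strand used. Duplicate removal can lower the counts of abundant genes. The columns are named by mouse number and were tied to groups through the study's own list of mice. 24 columns of wild-type mice were not used. Each library had between 45895097 and 65767802 counts. Genes were kept by filterByExpr, scaled by TMM and tested with edgeR 4.0.16 (quasi-likelihood) in R 4.3.3 on the 6 right libraries, calling a gene where the log2 fold change exceeded 0.3875 in size, a threshold of the study, with p below 0.05 before adjustment. The SE is the log2 fold change divided by the square root of F. The left libraries were fitted alike, and the difference between sides as an interaction over all 12. DESeq2 1.42.0 was an alternative, as were other scaling, filters, a replicate block and leaving out each library. The code was tested on simulated data. Replicates differed beyond sampling noise (chi-square per gene between 25.6 and 57.7), and p-values measure the spread between mice. Of 55335 gene identifiers 54587 matched the annotation with version and 55154 without.

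The rule named the 15 non-overlapping protein-coding genes of smallest p in each direction (mean of at least 1 CPM), up to 4 called members of each of 60 gene lists, 2 members of smallest p where a list had none called, the ribosomal RNA-like loci and 3 label genes. Other genes were named after their values were seen. The members and lists were chosen with earlier results of these data known.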

Additional observations from a re-analysis of the deposited data

Results flagged for a closer look

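Of the 69 called genes that the naming rule picked, 18 had an unadjusted p under 0.05 for the difference between the effect of ELE on the right and that on the left, by edgeR's interaction test over 12 libraries. Over all genes 490 of 18810 (2.6%) did. None had an adjusted p under 0.05, the lowest being 0.999956. The genes had been picked for their change on the right, which itself raises the count, and the 2 sides came from different mice. The differences (right minus left, log2) were positive for Gm42418 (1.14), CT010467.1 (1.26), Gm23935 (1.44), Lars2 (1.40) and Klk8 (0.49). They were negative for Nos1 (-0.63), Lrrk2 (-0.62), Tshz1 (-0.59), Grin3a (-0.52), Plch1 (-1.10), Igfbp7 (-1.33), Fn1 (-1.77), Stk32b (-2.20), Cdkn1c (-2.18), Unc13c (-1.71) and Pcdh18 (-4.15). The vessel and blood genes Kdr (-1.40) and Hba-a1 (-1.47) were also among them.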

How the results depend on the processing

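With DESeq2 at its default settings, which also tested more genes (26922, without edgeR's filter on low counts), 327 genes were called lower. An adjusted p under 0.05 was given to 14, 1 of them (Kcnj13) not tested by edgeR. The others were CT010467.1, Gm42418, Nos1, Gm23935, Lars2, Fn1, Inf2, Stk32b, Igfbp7, Arntl, Chgb, Cgnl1 and Folr1. Without a filter on low counts, 247 were called higher and 468 lower and 27 had an adjusted p under 0.05, and the left gave 409 higher and 282 lower and the difference between sides 1116 genes at an unadjusted p under 0.05. With a replicate block on the mouse number, 118 were called higher (101 of them among the 131) and 183 lower (144 of the 216), with 0 at an adjusted p under 0.05 and 506 at an unadjusted one. Deviations of same-numbered mice correlated at 0.22, -0.067 and -0.084. So few pairs cannot show whether the numbers pair the samples, and the main fit did not use them. The paper states that males from shared litters were divided between the housing groups. Whether a mouse number stands for a litter was not tested. Leaving out 1 library gave between 140 and 267 higher, between 164 and 376 lower and between 0 and 3 at an adjusted p under 0.05 on the right. The lower count exceeded 1.5 times the full one without TG7.3.1 (359) and TG9.1.1 (376), and the higher count without TG9.1.1 (267). On the left the range was 110 to 473 higher and 110 to 482 lower, and for the difference between sides 384 to 812. Signs were compared only for the 135 genes that the naming rule picked. Among these, leaving out 1 library turned the sign of Cldn5 (0.045 without TG7.3.3, lowest -2.97) and of 5 genes that were not called. Values ranged from -0.027 to 0.145 for Sort1, from -0.081 (also -0.035 and -0.013) to 0.106 for Slc17a7 and from -0.607 to 0.13 for Gm26917. They ranged from -0.563 to 0.28 for Gm15564 and from -0.046 (also -0.017) to 0.285 for Camk2a. The causes were not tested. The design had 3 mice a group.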
